A study of Mus musculus with 20 samples.

Results

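Chemokines are small secreted proteins that direct the movement of leukocytes, and the genes described here encode them and the receptors that read them. The members were chosen by name, as every gene whose symbol in the array's annotation is a numbered Ccl, Cxcl, Ccr or Cxcr symbol, a numbered Ackr symbol, Ccrl2, a Cx3c symbol, Xcl1 or Xcr1, read by a probe set that carries that symbol alone. The rule found 53 genes of the 18193 measured, and they comprised 32 ligands, 16 receptors and 5 atypical receptors. Cells of C57BL/6 mice were sorted into 10 haematopoietic populations, and each was read on 2 arrays labelled as biological replicates. KSL is the usual name of a fraction enriched in stem cells, and LinNeg is the fraction negative for lineage markers. The mature populations were Erythroblast (Ter119 positive), B (B220), NK (NK1.1), NKT (CD3ε and NK1.1), CD4T, CD8T, Neutrophil (Gr-1) and Monocyte (Mac-1, labelled as monocytes/macrophages). No treatment is labelled, and the tissue, the age and the animals behind each array are not named in the labels. P-values therefore measure the spread between these arrays, which may be partly technical.

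Most chemokines bind receptors that signal through an inhibitory G protein, which drives actin remodelling and directed migration. Several ligands share a receptor and several receptors share a ligand, so the receptors on a cell largely fix which tissues it enters. In bone marrow Cxcr4 and its ligand Cxcl12 retain stem cells and neutrophils, Cxcr2 acts in the release of neutrophils, and Ccr2 in the release of monocytes. In lymphoid organs Ccr7 and Cxcr5 place T cells and B cells in their zones. Atypical receptors such as Ackr1 bind chemokines without that signalling.

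Levels are probe set intensities on the deposited scale, on which the trimmed mean of every array was 100. Differences are on the scale of log2(intensity + 6.75), which understates the change of dim genes, and carry the standard error (SE) of one limma model over the 20 arrays. A member was called when its Benjamini-Hochberg adjusted p was under 0.05 and its log2 difference was at least 1 in size. Marker lists were summed on every array to check the labels. The NK arrays carried 8 monocyte markers at a summed intensity of 22224 to 25501, against 15129 to 21103 in Monocyte. They carried 9 neutrophil markers at 14551 to 18979, and the Monocyte arrays carried the same markers at 72888 to 87586, against 90946 to 108986 in Neutrophil. The LinNeg arrays carried 8 T cell markers at 689 to 855 and 8 NK cell markers at 579 to 757. The lists that define the labelled types were high where the labels place them, with NK cell markers at 14274 to 14876 in NK, T cell markers at 16472 to 17179 in CD4T and erythroid markers at 36996 to 48851 in Erythroblast.

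**Figure D1:**
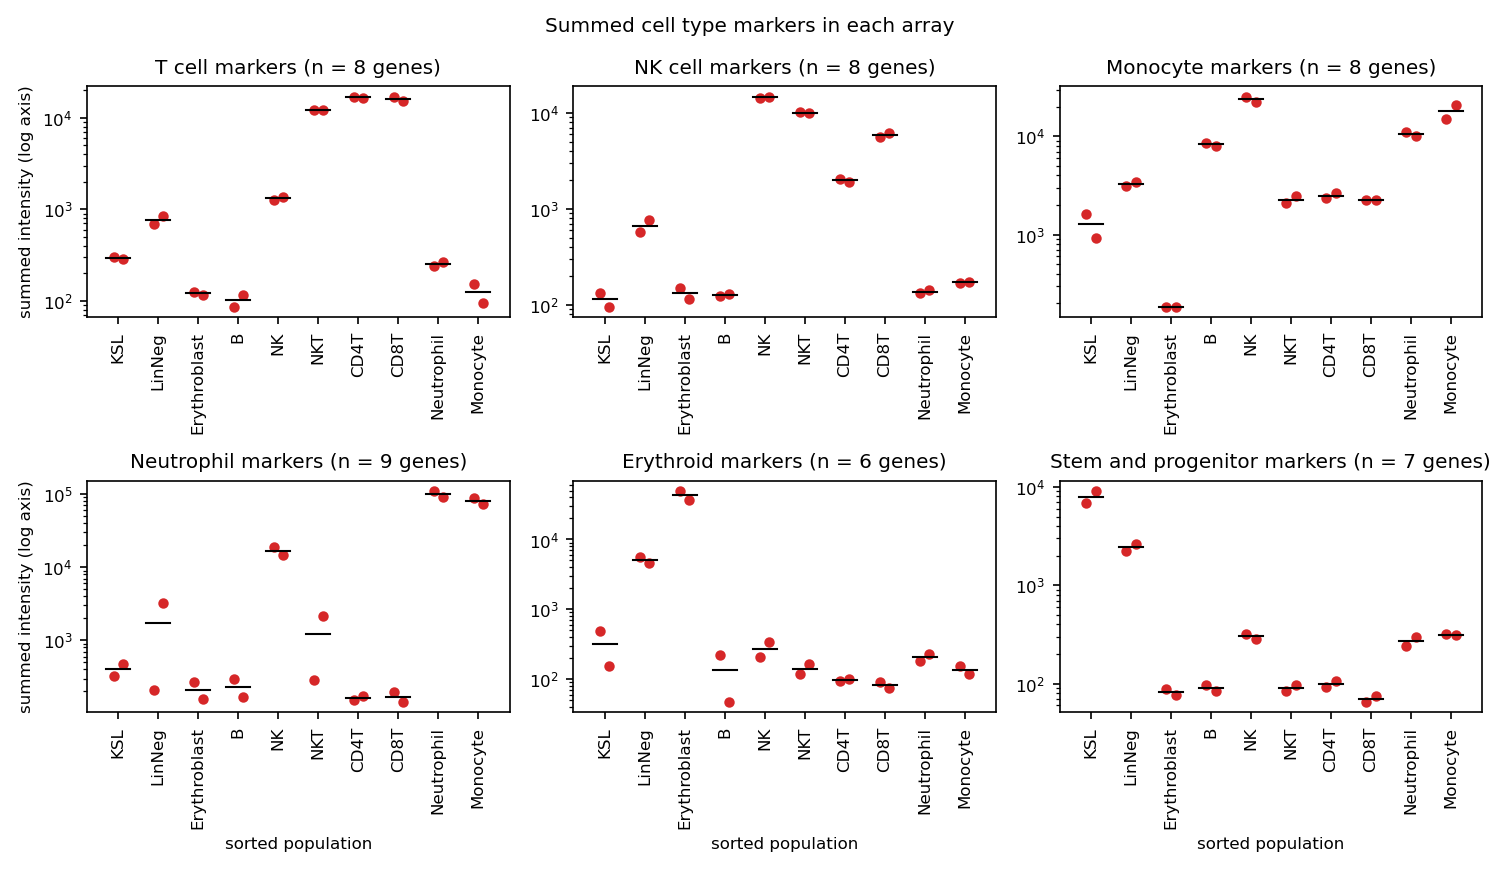
Summed intensity of 6 cell type marker lists (y axes, log scale) in each of the 20 arrays, by sorted population (x axes), with points for arrays and bars for the mean of 2. The NK arrays hold the monocyte markers above the level of the Monocyte arrays, and the Monocyte arrays hold neutrophil markers near the level of the Neutrophil arrays.

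An intensity of 100 in the mean of some population was reached by 21 of the 53 members, namely 11 of 16 receptors, 8 of 32 ligands and 2 of 5 atypical receptors. Intensities of different probe sets are not comparable, so these counts describe the families and do not rank them. CD4T and NK had 11 members each at that level, KSL and B had 4 each and Erythroblast had 3. As shares of the 53 members these were 20.8% in CD4T and in NK, 7.55% in KSL and in B and 5.66% in Erythroblast. Of all genes 34.7% reached 100 in CD4T, 35.1% in NK, 37.4% in KSL, 33.9% in B and 26.7% in Erythroblast, the lowest of the 10 populations. Members were tested when their highest population mean lay over the median of all values, which 40 did and 13 did not. Those 13 were 11 ligands and the receptors Ccr3 and Ccr8, with highest population means between 6.00 and 23.8. Just outside the limit lay Ccl17, at 4.88 on the log2 scale, and just inside it lay Ccr4, at 4.91. An F test over the 10 populations passed at the adjusted threshold for 25 of the 40 tested members, or 62.5%, while 76.8% of the 14063 genes tested did so. A member counted as restricted where one population exceeded every other in pairwise calls. That held for 7 tested members, or 17.5%, beside 10.9% of all genes tested. They were Cxcr5 in B (background 1.12%), Ccr2 and Cx3cr1 in NK (0.782%), Ccr1 and Cxcr2 in Neutrophil (0.996%), and the atypical Ackr1 and Ccrl2 in Erythroblast (6.6%). None of the 21 tested ligands was restricted. In bulk arrays a lower share of cells that carry a transcript and less of it per cell cannot be told apart.

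**Figure D2:**
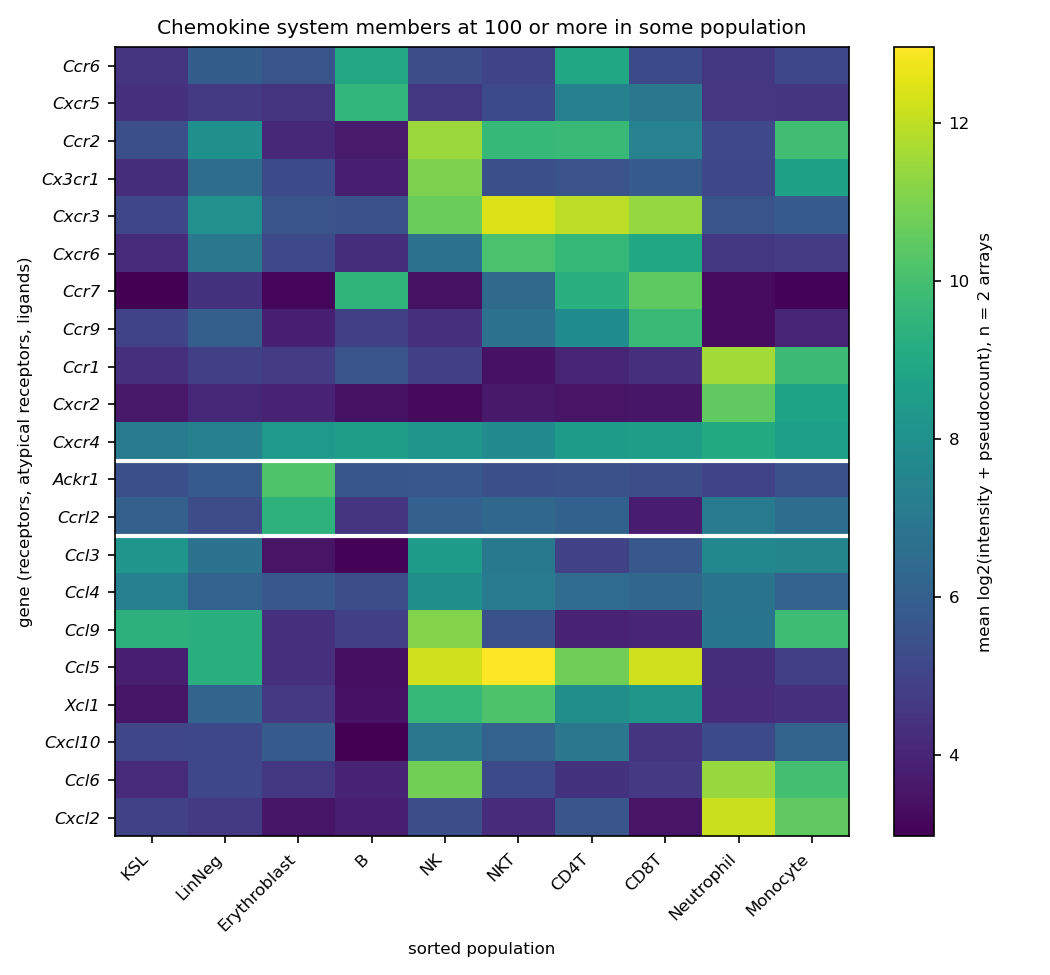
Mean log2(intensity + pseudocount) of the 21 members at 100 or more in some population (rows, receptors above, atypical receptors between the white lines, ligands below) in the 10 sorted populations (columns, n = 2 arrays each). Rows with 1 bright cell, such as Ackr1 in Erythroblast, stand beside Cxcr4, which is at 100 or more in all 10 populations.

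The homing receptors of lymphoid organs divided the lymphocytes in different ways. Cxcr5, the receptor of Cxcl13 that guides B cells into follicles, had intensities of 841 and 683 on B arrays, 177 and 142 on CD4T arrays, and 101 and 137 on CD8T arrays. The other 14 arrays lay between 6.73 and 36.9. The B arrays stood above all others without overlap, and the log2 difference of B minus CD4T was 2.21 (limma adjusted p = 0.000691). Ccr7, through which lymphocytes enter lymph nodes, had 29.5 and 5.91 on LinNeg arrays, 717 and 707 on B arrays, 76.2 and 82.4 on NKT arrays, 412 and 939 on CD4T arrays, and 1824 and 1125 on CD8T arrays. The other 10 arrays lay between 0.794 and 4.75. Ccr7 was high in B and both T cell populations, intermediate in NKT and near the bottom of the scale in NK and the myeloid populations. The order among the high populations was not resolved, with a limma adjusted p of 0.164 for CD4T against CD8T and 0.145 for B against CD8T.

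Ccr6, the receptor of Ccl20, had 450.3 and 561 on B arrays and 573 and 388 on CD4T arrays, while the other 16 arrays lay between 9.25 and 55.2. B and CD4T overlapped in it, with a log2 difference of 0.09 (limma adjusted p = 0.93). Ccr9, the receptor of the thymic and gut chemokine Ccl25, had 36.9 and 83.4 on LinNeg arrays, 59.6 and 166 on NKT arrays, 259 and 184 on CD4T arrays, and 955 and 709 on CD8T arrays. The other 12 arrays lay between 1.14 and 37.4. Ccr9 was highest in CD8T without overlap, but its log2 difference of -1.88 ± 0.54 SE for CD4T minus CD8T was not called (limma adjusted p = 0.0586).

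**Figure D3:**
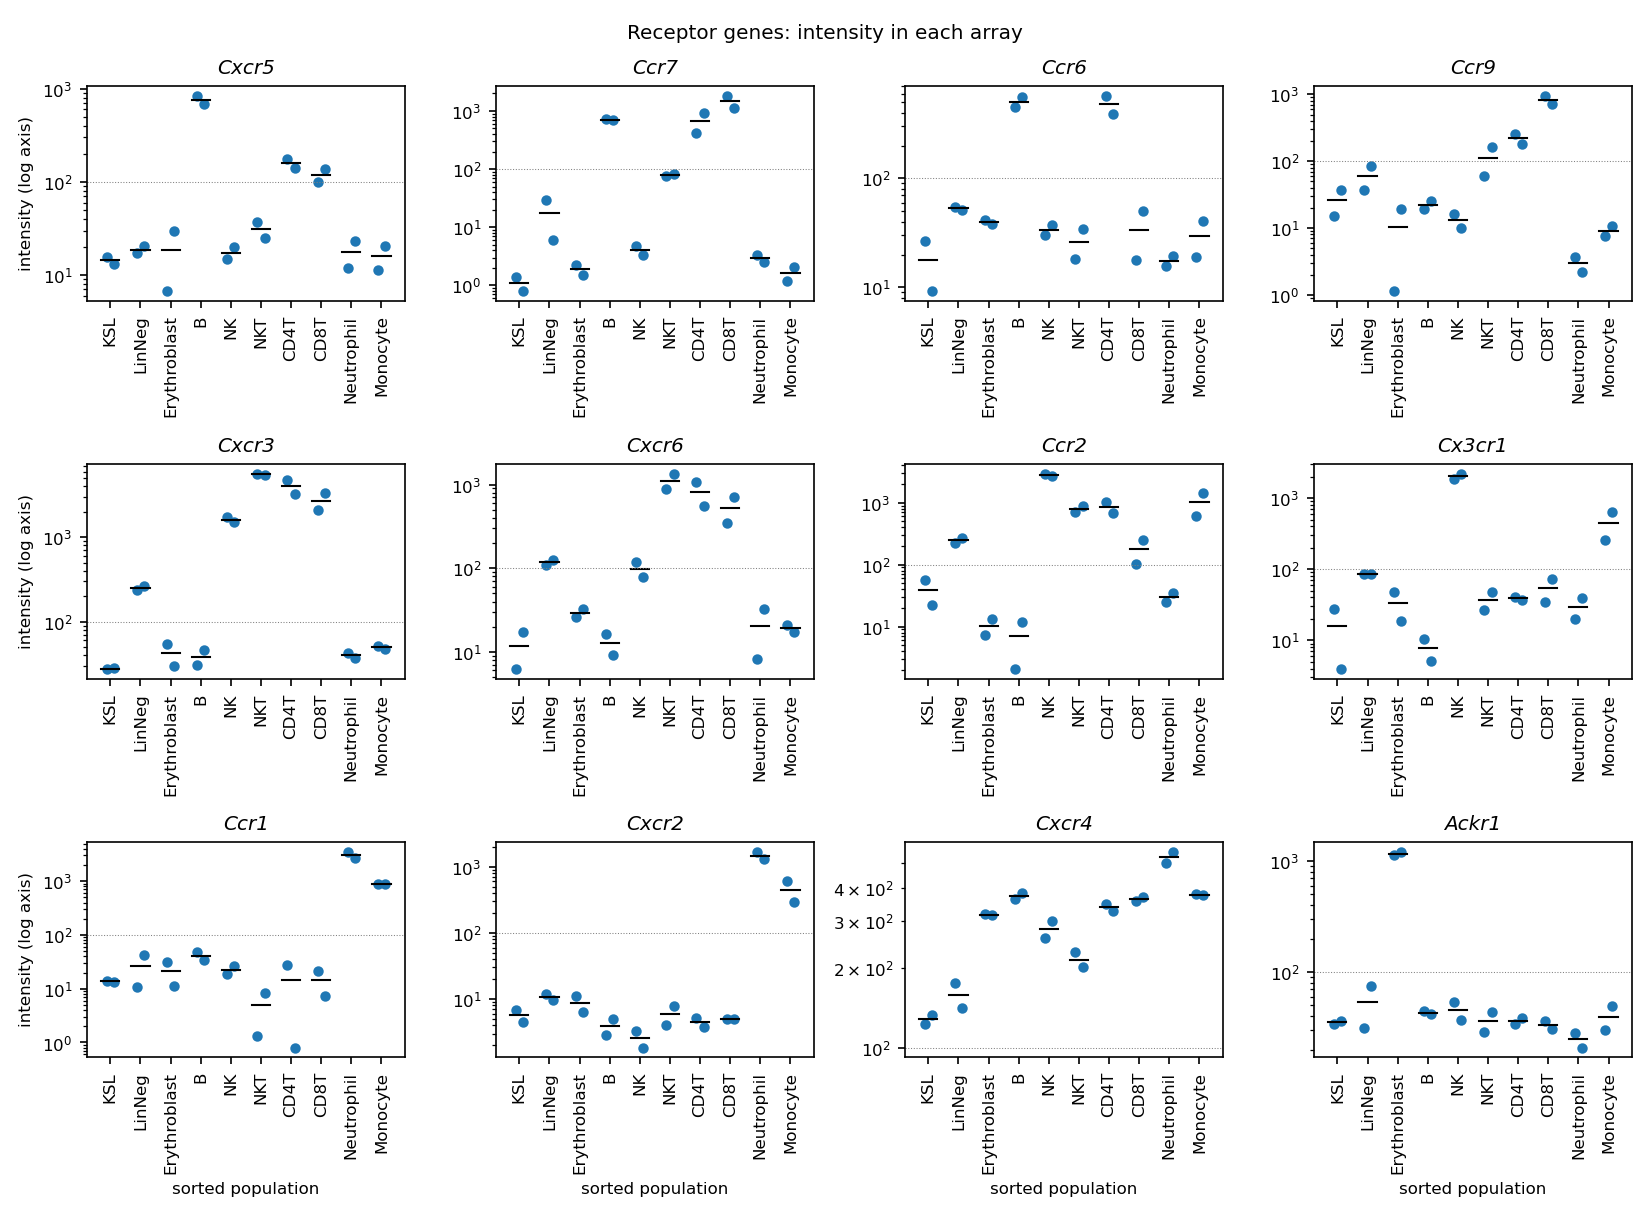
Intensity of 12 receptor and atypical receptor genes (y axes, log scale) in each of the 20 arrays by sorted population (x axes), with points for arrays, bars for the mean of 2 and a dotted line at 100. The 2 B arrays of Cxcr5, the 2 NK arrays of Cx3cr1 and the 2 Erythroblast arrays of Ackr1 lie above all other arrays.

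Receptors known from effector lymphocytes were shared by NKT and T cells. Cxcr3, which binds the interferon-induced ligands Cxcl9, Cxcl10 and Cxcl11, had 240.1 and 267 on LinNeg arrays, 1718 and 1519 on NK arrays, 5619 and 5494 on NKT arrays, 4730.4 and 3273 on CD4T arrays, and 2120.1 and 3308 on CD8T arrays. The other 10 arrays lay between 27.3 and 54.8. NKT lay highest without overlap, although its difference to CD4T was not called (log2 -0.50 for CD4T minus NKT, limma adjusted p = 0.34). Cxcr6, the receptor of Cxcl16, had 108 and 126 on LinNeg arrays, 118 and 78.4 on NK arrays, 877 and 1336 on NKT arrays, 1081 and 549.9 on CD4T arrays, and 348 and 701 on CD8T arrays. The other 10 arrays lay between 6.20 and 32.4. In Cxcr6 the arrays of NKT, CD4T and CD8T overlapped, and all 6 were above those of NK.

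Ccr2, which binds Ccl2, had 226 and 265 on LinNeg arrays, 2905 and 2665 on NK arrays, 702 and 898 on NKT arrays, 1027 and 681 on CD4T arrays, 103 and 249.7 on CD8T arrays, and 617 and 1411 on Monocyte arrays. The other 8 arrays lay between 2.05 and 56.9. Both NK arrays were above every other array, Monocyte included. Cx3cr1, the receptor of the membrane-bound chemokine Cx3cl1, had 85.6 and 84.9 on LinNeg arrays, 1860.3 and 2188 on NK arrays, and 259 and 639 on Monocyte arrays, and the other 14 arrays lay between 3.91 and 72.5. Ccr2 and Cx3cr1 thus peaked in the arrays labelled NK, which also held the monocyte marker Csf1r, with 7004 and 5725 on NK arrays and 3737 and 5948 on Monocyte arrays. The part of the monocyte markers in these levels was not tested. Ccr2 was no longer restricted to NK without either NK array, replicate 2 of CD4T, replicate 1 of NKT or replicate 1 of Monocyte, and Cx3cr1 was not without replicate 1 of Monocyte. The restriction of Ccr2 was also lost with the pseudocount at the 5th percentile of the values.

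Ccr1 and Cxcr2 were low outside the myeloid populations. Ccr1, which binds Ccl3 and Ccl5 among others, had 3446 and 2735 on Neutrophil arrays and 902 and 867 on Monocyte arrays, and the other 16 arrays lay between 0.807 and 48.0. Cxcr2, the receptor of the neutrophil-attracting Cxcl1 and Cxcl2, had 1659 and 1298 on Neutrophil arrays and 599 and 298 on Monocyte arrays, and the other 16 arrays lay between 1.85 and 12.01. In both genes the Neutrophil arrays lay above the Monocyte arrays and the Monocyte arrays above all the rest. NK was among the rest, with 18.9 and 26.5 for Ccr1 and 3.28 and 1.85 for Cxcr2, on arrays where the neutrophil granule gene Camp had 1437 and 1256. Ccr1 was no longer restricted to Neutrophil without any 1 of the 6 arrays of NK, Neutrophil and Monocyte, and Cxcr2 was not without replicate 2 of Monocyte.

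Cxcr4, the receptor that retains cells in marrow, was the only member at 100 or more in all 10 populations and was called in none of the 9 contrasts. It had 123 and 133 on KSL arrays, 176 and 141 on LinNeg arrays, 321 and 315 on Erythroblast arrays, 363 and 385 on B arrays, and 259.9 and 299.9 on NK arrays. It had 229 and 201 on NKT arrays, 348 and 329 on CD4T arrays, 357 and 370.4 on CD8T arrays, 499.9 and 547 on Neutrophil arrays, and 379 and 377 on Monocyte arrays. KSL was lowest and Neutrophil highest, and neither overlapped with any other population. In pairs of populations, chosen after the values were seen, the log2 difference of KSL minus Neutrophil was -1.97 (limma adjusted p = 8.91e-09), and that of KSL minus LinNeg was -0.28 and not called (adjusted p = 0.366). Its ligand Cxcl12, which stromal cells make, had a highest population mean of 33.7, in LinNeg. Other probe sets of Cxcl12 were highest in Erythroblast and in Monocyte.

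Among the atypical receptors Ackr1 and Ccrl2 were restricted to Erythroblast. Ackr1, the Duffy antigen of red cells, had 1121 and 1198 on Erythroblast arrays, while the other 18 arrays lay between 20.9 and 75.1. Ccrl2, which binds the attractant chemerin, had 813 and 560.5 on Erythroblast arrays and 141 and 118 on Neutrophil arrays, and the other 16 arrays lay between 1.48 and 103. Neither gene's Erythroblast arrays overlapped with any other, and Ccrl2 differed by 2.33 on the log2 scale between Erythroblast and Neutrophil. Tissue macrophage markers summed to 1419 to 1503 in Erythroblast, of which the iron exporter Slc40a1 gave 1338 and 1344. The 250 bases before the start of both genes in RefSeq (GRCm38.p6) were searched on both strands for AGATAA and TGATAA, letters that erythroid GATA factors are known to bind. The window of Ackr1 held 0 matches. Both sites of Ccrl2 are shown because the gene was restricted to Erythroblast, with the match in capitals, which reads as the reverse complement of the searched letters, and 12 bases on either side. A match is in 16.6% of the 32851 windows of all genes and is a description only.
Ccrl2, chr9:111057330-111057359, minus strand: ctctggaaactgTTATCTactcagggaact
Ccrl2, chr9:111057255-111057284, minus strand: atcacactctgaTTATCActggaagcaggc

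The other 3 atypical receptors stayed below 100 in every population. Ackr3, which scavenges Cxcl12, had 38.5 and 11.1 on Erythroblast arrays and 20.8 and 35.6 on B arrays. Ackr4, which binds Ccl19 and Ccl21, had 1.01 and 0.509 on Erythroblast arrays and 30.6 and 22.9 on Neutrophil arrays. The probe sets of Ackr4 disagreed: the one used was highest in Neutrophil, another in Erythroblast, at a mean of 18.9, and the third in B. Ackr2, a scavenger of inflammatory CC chemokines, lay between 9.14 and 47.8 over the 20 arrays.

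Ccl5 and Xcl1, which cytotoxic lymphocytes release, were low in B, Erythroblast, Neutrophil and Monocyte. Ccl5, which binds Ccr1 among others, had 607 and 633 on LinNeg arrays, 5089.7 and 4458 on NK arrays, 8523 and 7395 on NKT arrays, 2116 and 1459 on CD4T arrays, and 4308 and 5439 on CD8T arrays. The other 10 arrays, B among them, lay between 2.91 and 29.8. NKT stood above the other populations without overlap, but its differences to NK (limma adjusted p = 0.0913) and CD8T (adjusted p = 0.207) were not called. Xcl1, which attracts the dendritic cells that carry Xcr1, had 73.9 and 61.3 on LinNeg arrays, 791 and 755 on NK arrays, 1203 and 1074 on NKT arrays, 281 and 194 on CD4T arrays, and 238 and 365 on CD8T arrays. The other 10 arrays lay between 1.25 and 41.0. CD8T was below NK in Xcl1 by the log2 difference of -1.37 (limma adjusted p = 0.0423), and the difference of NK to NKT was not called (adjusted p = 0.494).

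Ccl3 and Ccl4 are neighbouring genes whose products draw monocytes and T cells, and in KSL their arrays disagreed. Ccl3 had 1081 and 75.6 on KSL arrays, 338 and 28.2 on LinNeg arrays, 229 and 506 on NK arrays, and 109.6 and 133 on NKT arrays. It had 2.13 and 102 on CD4T arrays, 39.8 and 50.8 on CD8T arrays, 188 and 189.7 on Neutrophil arrays, and 139.7 and 216 on Monocyte arrays, and Erythroblast and B lay between 1.41 and 6.21. Replicate 1 of KSL was the highest array of all, and replicate 2 lay below both Neutrophil arrays. Ccl4 had 373 and 61.4 on KSL arrays, 212 and 266 on NK arrays, 144 and 122 on NKT arrays, and 121 and 92.8 on Neutrophil arrays, and the other 12 arrays lay between 28.2 and 95.9. The same KSL array was highest in Ccl4. KSL minus LinNeg was not called in Ccl3 (log2 difference 1.45 ± 1.06 SE, limma adjusted p = 0.497) or in Ccl4 (1.22 ± 0.52 SE, adjusted p = 0.177).

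Ccl9 and Ccl6 are rodent CC chemokines of myeloid cells. Ccl9 had 821 and 542 on KSL arrays, 516 and 744 on LinNeg arrays, 2348 and 2032 on NK arrays, 134 and 87.4 on Neutrophil arrays, and 519.5 and 1648 on Monocyte arrays. The other 10 arrays lay between 3.57 and 39.9. Of the 4 members at 100 or more in KSL, only Ccl9 and Cxcr4 were so in both arrays, and KSL and LinNeg overlapped in Ccl9 (log2 difference 0.10 ± 0.54 SE, limma adjusted p = 0.951). Ccl6 had 1857 and 1739.8 on NK arrays, 3539.8 and 2064 on Neutrophil arrays, and 690.0 and 1468 on Monocyte arrays, and the other 14 arrays, KSL and LinNeg among them, lay between 4.63 and 55.8. In both genes both NK arrays were above both Monocyte arrays, and NK minus Monocyte was not called (limma adjusted p = 0.0975 for Ccl9 and 0.212 for Ccl6). The part of the monocyte markers on the NK arrays in these levels was not tested.

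**Figure D4:**
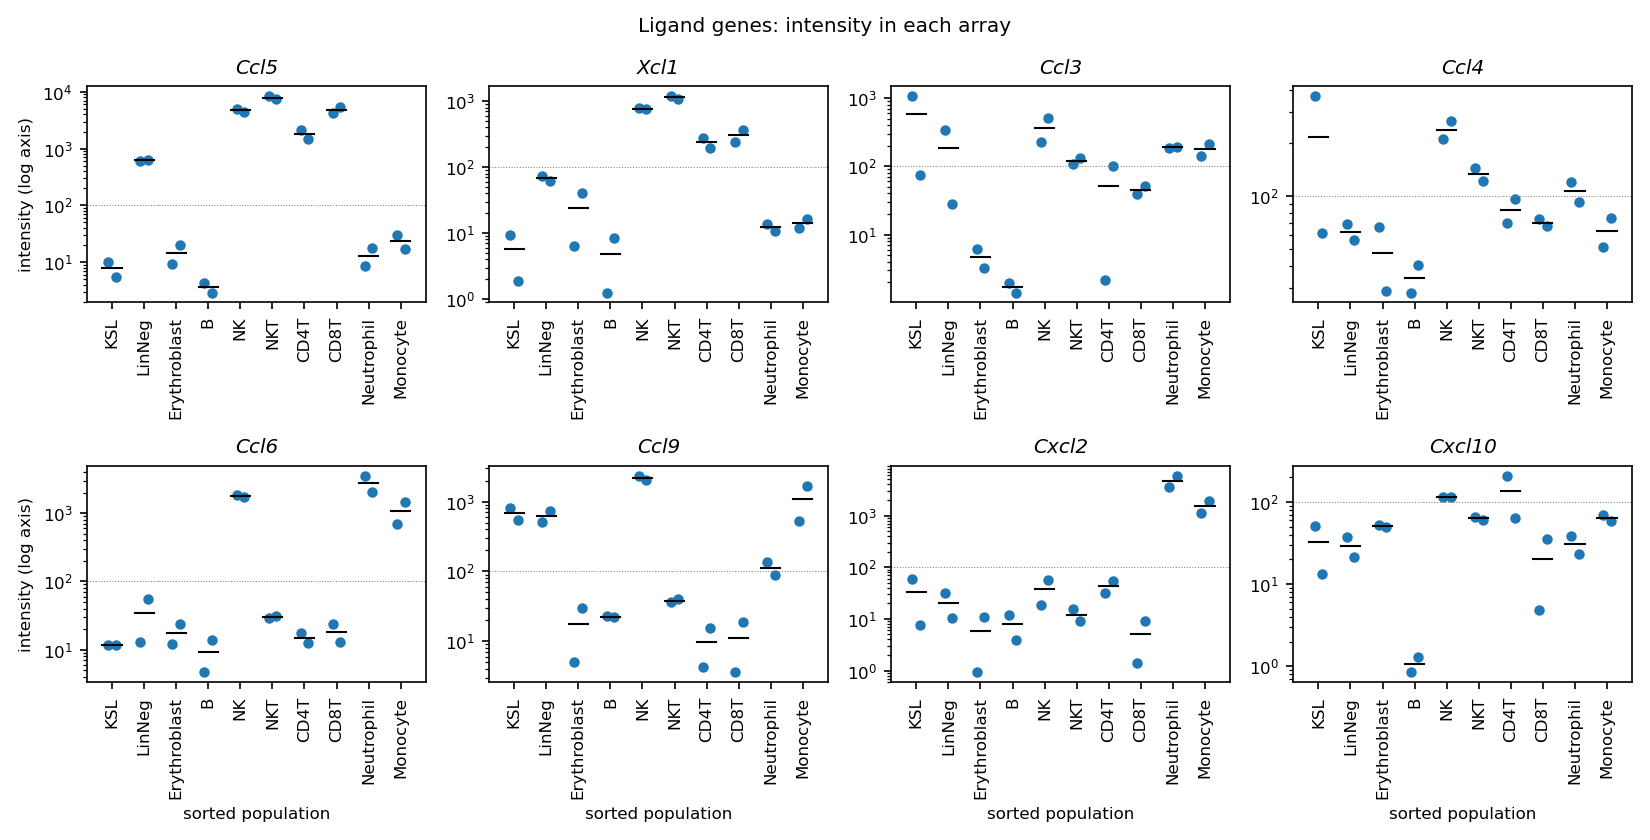
Intensity of the 8 ligand genes at 100 or more in some population (y axes, log scale) in each of the 20 arrays by sorted population (x axes), with points for arrays, bars for the mean of 2 and a dotted line at 100. The 2 KSL arrays of Ccl3 lie far apart, at 1081 and 75.6, while those of Ccl9 lie nearer together, at 821 and 542.

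Cxcl2, a ligand of Cxcr2, had 3492 and 5906 on Neutrophil arrays and 1130.1 and 1927 on Monocyte arrays, and the other 16 arrays lay between 0.918 and 59.4. Neutrophil lay above Monocyte without overlap, but the difference was not called (log2 difference 1.62 ± 0.64 SE, limma adjusted p = 0.0892). Its neighbours in the genome, Cxcl1 and Cxcl3, bind the same receptor and had highest population means of 90.3, in Erythroblast, and 21.8, in Neutrophil. Other probe sets of Cxcl1 were highest in NKT and in KSL. The sequences before the starts of the 3 genes are shown because these 3 ligands of Cxcr2 hold the same letters. The search was for GGGA, any 2 bases and TTCC, letters that NF-kB factors are known to bind, on both strands, and 1.21% of 32851 windows hold them. Cxcl15, which lies between Cxcl3 and Cxcl1, and the nearby Cxcr2 ligand Cxcl5 are not among the 6 members with a match. The search covered 40 of the 53 members. In each of the 3 windows of 250 bases (RefSeq, GRCm38.p6) the matches on the 2 strands overlap in the run given in capitals, and the first lies 71 bases before the start in Cxcl1, 97 in Cxcl2 and 73 in Cxcl3.
Cxcl1, chr5:90890995-90891244, plus strand: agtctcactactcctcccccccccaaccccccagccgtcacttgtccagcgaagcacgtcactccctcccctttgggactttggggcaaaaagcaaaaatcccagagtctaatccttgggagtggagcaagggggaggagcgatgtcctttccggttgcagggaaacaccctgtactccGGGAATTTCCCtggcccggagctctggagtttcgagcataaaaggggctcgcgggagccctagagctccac
Cxcl2, chr5:90903649-90903898, plus strand: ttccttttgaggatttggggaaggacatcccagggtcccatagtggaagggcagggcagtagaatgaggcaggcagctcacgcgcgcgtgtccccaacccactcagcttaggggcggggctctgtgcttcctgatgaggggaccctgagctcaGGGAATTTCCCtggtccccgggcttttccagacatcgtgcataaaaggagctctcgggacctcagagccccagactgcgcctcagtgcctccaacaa
Cxcl3, chr5:90785851-90786100, plus strand: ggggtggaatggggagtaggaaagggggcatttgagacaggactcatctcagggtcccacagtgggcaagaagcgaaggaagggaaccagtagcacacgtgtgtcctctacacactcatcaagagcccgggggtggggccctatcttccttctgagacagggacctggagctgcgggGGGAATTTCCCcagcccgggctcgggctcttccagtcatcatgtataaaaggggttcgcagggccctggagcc

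The interferon-induced Cxcl10 had 0.844 and 1.30 on B arrays, 117 and 115 on NK arrays, and 209 and 63.4 on CD4T arrays, and the other 14 arrays lay between 4.84 and 68.7. The 2 CD4T arrays lay on either side of NK, and B was lowest. Its relative Cxcl9 had 61.6 and 67.1 on NK arrays, 22.7 and 31.3 on NKT arrays, and 37.9 and 3.43 on Monocyte arrays, and the other 14 arrays lay between 1.69 and 6.12. A second probe set of Cxcl9 was highest in NKT and not in NK, at a mean of 19.3. The remaining ligands were also below 100 in every population. They include ligands of the receptors above, with highest population means of 61.5 for Cxcl13, 74.8 for Cxcl16, 33.1 for Ccl25 and 8.83 for Ccl20.

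Cxcl2 and its receptor Cxcr2 both had their highest mean in Neutrophil. Xcr1, the receptor of Xcl1, stayed below 100 in every population, with a highest mean of 28.1, in Monocyte, while Xcl1 had its highest mean in NKT.

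Neighbouring members on a chromosome did not all have their highest mean in the same population. On chromosome 11, in the gene order of GRCm38.p6, Ccl5, Ccl9, Ccl6, Ccl3 and Ccl4 follow each other with at most 2 other genes between neighbours. Their highest population means were in NKT, NK, Neutrophil, KSL and NK. The KSL mean of Ccl3 rested on replicate 1, with 1081 against 75.6 in replicate 2. On the log2 scale of the tests Ccl3 was highest in NK (8.44, against 8.22 in KSL), like its neighbour Ccl4. The lead of NKT over NK in Ccl5 and that of NK over Monocyte in Ccl9 were not called. The leads of Neutrophil over NK in Ccl6 (11.40 against 10.82) and of NK over KSL in Ccl4 (7.93 against 7.33) were under the size required for a call. In each of these genes the highest population was thus not set apart from the next by a call. Another run on the same chromosome, Ccl2, Ccl7, Ccl11, Ccl12, Ccl8 and Ccl1, had highest means between 6.00 and 77.6.

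Every member called between KSL and LinNeg was lower in KSL. The 7 called members were 17.5% of the 40 tested, beside 5.53% of all genes, 2.45% for lower and 3.07% for higher calls. None was called higher by limma, and 1, Ccl4, was higher at an unadjusted p under 0.05. The 7 were the receptors Ccr2, Ccr7, Cx3cr1, Cxcr3 and Cxcr6 and the ligands Ccl5 and Xcl1. Ccl5 averaged 7.82 in KSL and 619.8 in LinNeg, a log2 difference of -5.45 ± 0.29 SE (limma adjusted p = 1.01e-09). Cxcr3 averaged 27.7 in KSL and 254 in LinNeg (-2.91 ± 0.26 SE, adjusted p = 1.20e-06). Of the T cell markers 4 of 8 and of the NK cell markers 5 of 8 were also called lower in KSL, where they summed to 287 to 304 and 94.4 to 132, against 689 to 855 and 579 to 757 in LinNeg. Of the monocyte markers 3 of 8 (Cybb, Ms4a6c and Ly86) were called lower in KSL, with sums of 912 to 1626 in KSL and 3096 to 3439 in LinNeg, and of the erythroid markers 4 of 6. The part of these lists in the calls, those of Ccr2 and Cx3cr1 included, was not tested. The call of Ccr7 was lost without either KSL array or replicate 1 of LinNeg (adjusted p = 0.127 to 0.589), under quantile normalization (0.0533) and with no filter on dim genes (0.0665), and that of Cx3cr1 without replicate 2 of KSL or either LinNeg array (adjusted p = 0.0518 to 0.234).

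**Figure D5:**
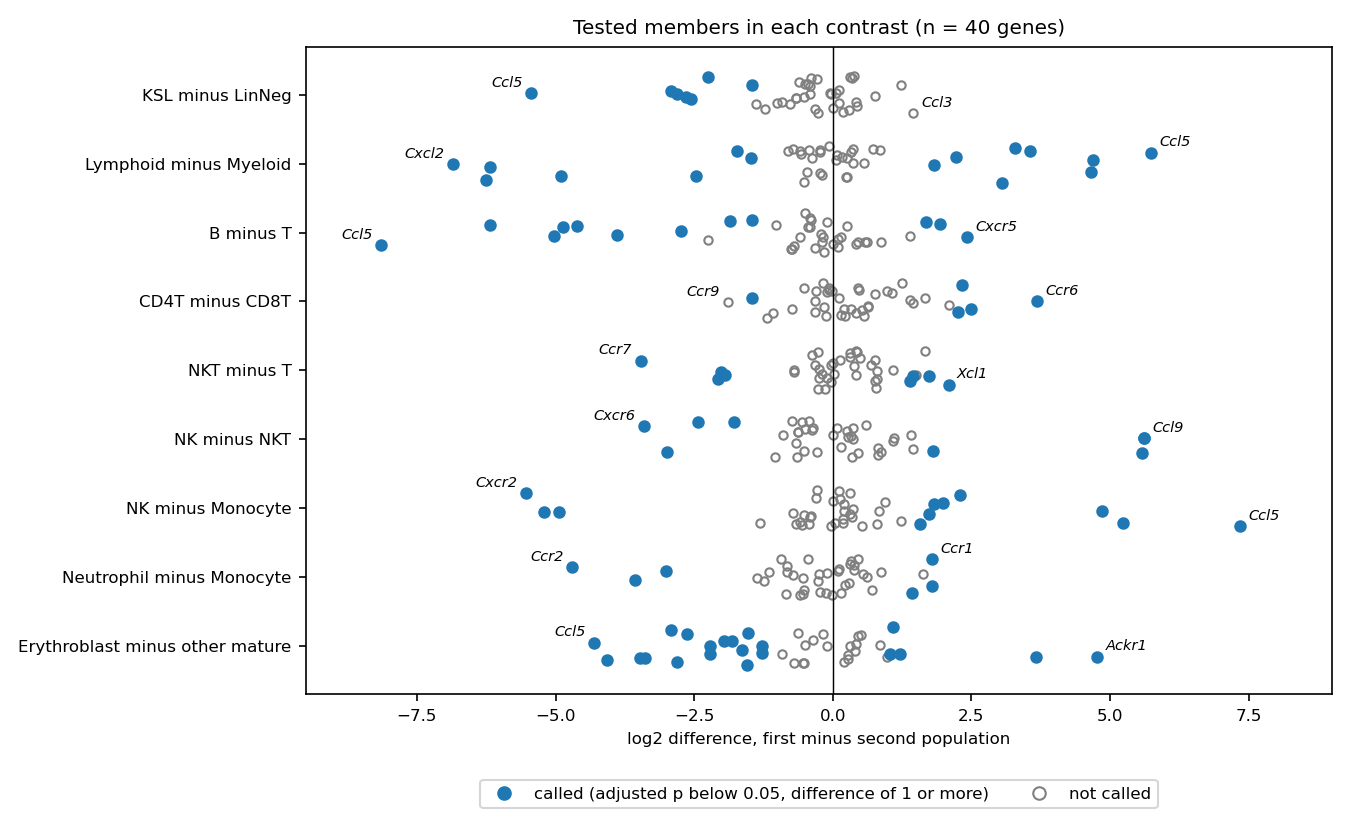
Log2 difference of the 40 tested members in each of the 9 contrasts, first population minus second, with filled points for called members and open points for the others. All 7 called members are below 0 for KSL minus LinNeg, while Lymphoid minus Myeloid has 8 above and 7 below.

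The mean of the 5 lymphoid populations was set against that of the 2 myeloid ones. Of the 40 tested members 8 were higher and 7 lower, or 37.5% in all, beside 29.7% of all genes (17.6% higher and 12.1% lower). Higher were the receptors Cxcr3, Ccr7, Cxcr6, Ccr9, Cxcr5 and Ccr6 and the ligands Ccl5 and Xcl1. Only in Ccr7 and Ccr9 did the mean of every lymphoid population lie above those of both myeloid ones. For NK these means were dim and close to the myeloid ones. They were 4.05 in NK and 2.95 in Neutrophil for Ccr7, and 13.2 in NK and 9.13 in Monocyte for Ccr9. In each of these comparisons the arrays overlapped, so NK was not set apart from the myeloid populations in either gene. B lay below Monocyte in Cxcr3 (38.4 against 49.6), Cxcr6 and Xcl1. In Ccr6 NKT lay below Monocyte (26.3 against 29.8), and in Cxcr5 NK lay below Neutrophil (17.4 against 17.6). Ccl5 averaged 3879 in the lymphoid and 18.2 among the myeloid populations (log2 difference 5.74 ± 0.17 SE, limma adjusted p = 2.36e-15), although B had 4.29 and 2.91. Lower were the receptors Ccr1 and Cxcr2, the atypical Ccrl2, and the ligands Cxcl2, Ccl6, Ccl9 and Ccl3. NK went against this in Ccl9 (2190, against 111 in Neutrophil and 1084 in Monocyte) and Ccl3 (367, against 189 and 178). In Ccl6 NK lay above Monocyte (1799 against 1079) and below Neutrophil (2802). In Ccr1, Cxcr2, Ccrl2 and Cxcl2 the mean of every lymphoid population lay below those of both myeloid ones. Cxcl2 averaged 21.1 in the lymphoid and 3114 among the myeloid populations (-6.86 ± 0.38 SE, adjusted p = 1.14e-11). The SE holds the spread between arrays and not that between populations of a lineage. With NK left out of the lymphoid side 8 were higher and 8 lower, Cx3cr1 being added to the lower ones. The call of Ccl3 was lost without either Neutrophil array or replicate 2 of Monocyte (adjusted p = 0.0668 to 0.0916).

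B had more Cxcr5 and Ccr6 than the mean of CD4T and CD8T and less Ccl5, Cxcr3 and Cxcr6. In Ccr6 the difference lay with CD8T, as the means were 506 in B, 480 in CD4T and 33.9 in CD8T. Against the mean of CD4T and CD8T, 3 of the 40 tested members were higher and 9 lower in B, or 30% in all, beside 13% of all genes (5.91% higher and 7.08% lower). Higher were Cxcr5, with 762 in B and 139 in T cells on average (log2 difference 2.42 ± 0.36 SE, limma adjusted p = 4.86e-05), Ccr6 (1.93 ± 0.37 SE, adjusted p = 0.000688) and the dim Ackr3. Lower were the receptors Cxcr3, Cxcr6, Ccr2, Ccr9 and Cx3cr1 and the ligands Ccl5, Xcl1, Cxcl10 and Ccl22. Ccl5 averaged 3.60 in B and 3330.2 in T cells (-8.15 ± 0.25 SE, adjusted p = 2.87e-14). Ccr7 had a difference of -0.41 ± 0.38 SE and was not called (adjusted p = 0.553). The call of Ccl22, a ligand of Ccr4 with 5.77 and 3.10 on B arrays, 22.9 and 21.9 on CD4T arrays, and 29.5 and 21.3 on CD8T arrays, was lost without any 1 of the B and CD4T arrays (adjusted p = 0.0521 to 0.198), and without replicate 1 of CD8T it was not tested. Without replicate 2 of B, Cx3cr1 was not called (adjusted p = 0.0949) and Ackr3 was not tested.

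CD4T and CD8T differed in 5 of the 40 tested members, or 12.5%, beside 3.21% of all genes (2.13% higher and 1.07% lower). Ccr6, Ccr2, Ccrl2 and Cxcl10 were higher in CD4T and Ccl5 was lower. Ccr6 averaged 480.4 in CD4T and 33.9 in CD8T, a log2 difference of 3.68 ± 0.43 SE (limma adjusted p = 3.70e-05). Ccr2 averaged 854 in CD4T and 176 in CD8T (2.33 ± 0.45 SE, adjusted p = 0.0046). Ccl5 averaged 1787 in CD4T and 4873 in CD8T (-1.46 ± 0.29 SE, adjusted p = 0.00505). Ccr6 and Ccrl2 kept their calls when any array of CD4T or CD8T was left out. Without replicate 1 of CD4T or replicate 1 of CD8T 3 members were called in place of 5, with Ccr2 at an adjusted p of 0.0836 and 0.112 and Cxcl10 at 0.26 and 0.276. Ccl5 was at 0.0857 without replicate 2 of CD4T and at 0.0779 without replicate 2 of CD8T.

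NKT cells carry T cell and NK cell features, and here they had more Ccl5 and Xcl1 and less Ccr7, Ccr6, Ccr9 and Cxcr5 than the mean of CD4T and CD8T. In Ccr6 the difference lay with CD4T, as the means were 26.3 in NKT, 33.9 in CD8T and 480 in CD4T. In Ccrl2 it lay mostly with CD8T, with means of 72.8 in NKT, 60.0 in CD4T and 8.93 in CD8T. Ccr9 averaged 113 in NKT, 221 in CD4T and 832 in CD8T. The lead of NKT over CD8T alone in Ccl5 was not called. Of the 40 tested members 4 were higher and 4 lower in NKT, or 20% in all, beside 3.36% of all genes (1.97% higher and 1.39% lower). Xcl1 averaged 1138 in NKT and 269.5 in T cells (log2 difference 2.09 ± 0.41 SE, limma adjusted p = 0.00426). Also higher were Ccl5 (1.44 ± 0.25 SE, adjusted p = 0.00132), Cxcl9 and the atypical Ccrl2. Ccr7 averaged 79.3 in NKT and 1075 in T cells (-3.47 ± 0.38 SE, adjusted p = 1.96e-05), and Ccr6, Ccr9 and Cxcr5 were also lower. Cxcr3 had a difference of 0.78 ± 0.22 SE, under the size required for a call (adjusted p = 0.0495). Without replicate 1 of NKT 3 members were called, without replicate 2 of NKT 4, and without replicate 1 of CD8T 5, in place of 8. Ccl5 and Ccr7 kept their calls under each of these omissions. Xcl1 was lost without either NKT array (adjusted p = 0.0533 to 0.0639), Ccr6 without replicate 1 of NKT (0.0688), Cxcr5 without replicate 2 of NKT (0.0809) and Ccr9 without replicate 1 of NKT or of CD8T (0.0606 to 0.288). Ccrl2 was lost without either NKT array or replicate 1 of CD4T or CD8T (0.0547 to 0.14), and Cxcl9 without either NKT or CD8T array or replicate 2 of CD4T (0.0519 to 0.232). With the pseudocount at the 5th percentile Xcl1 (0.07) and Ccr9 (0.108) were not called. Tissue macrophage markers summed to 653 in replicate 1 of NKT and 4456 in replicate 2, and their part was not tested.

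NK had more Ccl9, Ccl6, Cx3cr1 and Ccr2 than NKT and less Cxcr6, Ccr7, Ccr9 and Cxcr3. Of the 40 tested members 4 were higher and 4 lower in NK, or 20% in all, beside 11.3% of all genes (6.86% higher and 4.47% lower). Higher were Ccl9, with 2189.9 in NK and 38.0 in NKT (log2 difference 5.62 ± 0.54 SE, limma adjusted p = 3.73e-07), Ccl6 (5.61 ± 0.47 SE), Cx3cr1 (5.57 ± 0.53 SE) and Ccr2 (1.80 ± 0.45 SE, adjusted p = 0.00889). Lower were Cxcr6, with 98.0 in NK and 1107 in NKT (-3.40 ± 0.45 SE, adjusted p = 2.10e-05), Ccr7, Ccr9 and Cxcr3. The monocyte markers summed to 22224 to 25501 in NK and 2082 to 2463 in NKT, and their part in the 4 higher members was not tested. Ccr2 was at an adjusted p of 0.0671 without replicate 1 of NK and 0.084 without replicate 1 of NKT, and Ccr9 at 0.0843 without replicate 2 of NKT.

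Against Monocyte, NK had more Ccl5, Xcl1 and Cxcr3 and less Cxcr2, Cxcl2 and Ccr1. Of the 40 tested members 8 were higher and 3 lower in NK, or 27.5% in all, beside 19.6% of all genes (11.1% higher and 8.48% lower). Higher were Ccl5, with 4774 in NK and 23.3 in Monocyte (log2 difference 7.35 ± 0.29 SE, limma adjusted p = 1.95e-12), Xcl1 (5.23 ± 0.47 SE), Cxcr3 (4.85 ± 0.26 SE), Cx3cr1 (2.29 ± 0.53 SE), Cxcr6, Ccl4, Cxcl9 and Ccr2. Lower were Cxcr2, with 2.57 in NK and 449 in Monocyte (-5.53 ± 0.39 SE, adjusted p = 4.70e-09), Cxcl2 and Ccr1. The neutrophil markers summed to 14551 to 18979 in NK and 72888 to 87586 in Monocyte, and their part in the 3 lower members was not tested. Without replicate 1 of Monocyte, Ccr2 (adjusted p = 0.225), Cx3cr1 (0.0777) and Ccl4 (0.11) were not called. Ccr2 was also lost without either NK array (0.0803 and 0.0557) and with the pseudocount at the 5th percentile (0.058), Ccl4 without replicate 2 of NK (0.0882) and Cxcl9 without either NK array or replicate 2 of Monocyte (0.0584 to 0.311).

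Neutrophil and Monocyte differed in 6 of the 40 tested members, or 15%, beside 12.2% of all genes (2.62% higher and 9.56% lower). Higher in Neutrophil were Cxcr2, with 1479 in Neutrophil and 449 in Monocyte (log2 difference 1.78 ± 0.39 SE, limma adjusted p = 0.00276), Ccr1 (1.79 ± 0.59 SE, adjusted p = 0.041) and Ccl6 (1.42 ± 0.47 SE, adjusted p = 0.0411). Lower were Ccr2, with 29.8 in Neutrophil and 1014 in Monocyte (-4.70 ± 0.45 SE, adjusted p = 1.20e-06), Cx3cr1 (-3.56 ± 0.53 SE) and Ccl9 (-3.02 ± 0.54 SE). The 3 lower members kept their calls under every setting tried. Ccr1 was lost without any 1 of the 4 arrays (0.0904 to 0.203), Ccl6 without replicate 1 of Neutrophil or of Monocyte (0.31 to 0.338), and Cxcr2 without replicate 2 of Monocyte (0.0731). Ccr1 and Ccl6 were also lost under another pseudocount, quantile normalization and no filter on dim genes, each of which left 4 members called in place of 6. The neutrophil markers on the Monocyte arrays are given above, and their part was not tested.

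Erythroblast had more Ackr1 and Ccrl2 than the other mature populations and, against their mean, less of 9 receptors. In each of these 9 some other mature population had a lower mean than Erythroblast. Cxcr2, for example, averaged 8.79 in Erythroblast and 2.57 in NK, and Ccr1 21.0 in Erythroblast and 4.88 in NKT. Of the 40 tested members 5 were higher and 16 lower than in the mean of the other 7, or 52.5% in all, beside 46.4% of all genes (17.6% higher and 28.8% lower). Higher were Ackr1, with 1159.6 in Erythroblast and 36.9 in the others (log2 difference 4.77 ± 0.27 SE, limma adjusted p = 8.59e-12), Ccrl2 (3.66 ± 0.29 SE, adjusted p = 1.50e-09), and the dim Cxcl17, Ackr3 and Ccl8. The 16 lower members held 9 of the 11 receptors that reached 100, Ccr6 and Cxcr4 being the other two, with 6 ligands and Ackr4. Cxcr4 had a difference of -0.10 ± 0.13 SE and was not called (adjusted p = 0.502). Cxcl17 had 38.2 and 146 on Erythroblast arrays and was not called without replicate 2 (adjusted p = 0.583), nor were Ccr1 (0.167), Cx3cr1 (0.25) and Ccl3 (0.058). Without replicate 1 the calls of Ackr3 (0.546), Ccl8 (0.185), Ccr9 (0.0649) and Cxcr5, whose difference was then under 1 in size, were lost. With the pseudocount at the 5th percentile Ccr1 (0.0909) and Ackr3 (0.0591) were not called. The other probe set of Ackr4 that was highest in Erythroblast goes against its lower call. Ackr3 was not tested without replicate 2 of B, nor Ackr4 without replicate 1 of Neutrophil, and the difference of Ccl8 was under 1 without any of 6 single arrays of other populations.

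Genes that act downstream of the receptors were read from a list of 39, of which 37 were measured and tested. In Erythroblast 29 were lower than in the other mature populations and 1 was higher, with a median log2 difference of -2.75 beside -0.13 over all genes. Over all genes 28.8% were lower and 17.6% higher. The ratio of 3′ to 5′ probe sets of Gapdh, a sign of RNA quality, was 5.86 to 6.10 on the Erythroblast arrays and 2.36 to 5.71 on those of the other mature populations, and its part was not tested. Among the lower ones were Dock2, which activates Rac in migrating lymphocytes, with 5.15 in Erythroblast and 1256 in the others (-6.72 ± 0.12 SE), and Coro1a, an actin regulator, with 1.60 in Erythroblast and 5317 in the others (-9.29 ± 0.12 SE). The exception was Arrb1, an arrestin that ends receptor signalling, with 1917 in Erythroblast and 126 in the others (3.98 ± 0.20 SE). Its relative Arrb2 was lower, with 21.5 in Erythroblast and 1049 in the others (-4.58 ± 0.19 SE).

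In the other contrasts fewer of the 37 were called. Lymphoid minus Myeloid had 4 higher and 11 lower, beside 17.6% and 12.1% of all genes. The Gapdh ratio was 3.47 to 5.71 on the lymphoid and 2.36 to 3.34 on the myeloid arrays, and that of Actb 1.68 to 2.61 on the lymphoid and 1.34 to 1.48 on the myeloid arrays. The ranges did not overlap, and the part of RNA quality in any difference between lymphoid and myeloid populations was not tested. The lower ones included the G protein subunits Gnai2 (-1.12 ± 0.07 SE), Gnai3 and Gnb2, the kinase subunit Pik3cg, and Arrb2, Rgs2, Rgs18 and Rgs19, which dampen receptor signalling. Rgs2 divided the lymphoid populations, with means of 3448 in NK, 2505 in B, 655 in CD4T, 407 in NKT and 250 in CD8T. Its means were 3212 in Neutrophil and 1958 in Monocyte. The higher ones were Rgs1, Rgs10, Rgs16 and Foxo1, a transcription factor of resting lymphocytes. B minus T had 2 higher, Rgs2 and Rgs18, and 7 lower, beside 5.91% and 7.08% of all genes. Rgs10 was among the lower ones, with 135 in B and 1031 in T cells. NK minus Monocyte had 5 higher and 7 lower, beside 11.1% and 8.48%, and NK minus NKT 3 and 1, beside 6.86% and 4.47%. KSL minus LinNeg had 2 higher, Stat3 and Gng2, and 1 lower, Rgs10, beside 3.07% and 2.45%. Neutrophil minus Monocyte had 1 in each direction, beside 2.62% higher and 9.56% lower, as had NKT minus T, beside 1.97% and 1.39%. CD4T minus CD8T had 0 by limma, beside 2.13% higher and 1.07% lower of all genes. At an unadjusted p under 0.05 it had 7 higher and 3 lower.

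A second list held 20 other chemoattractants and migration receptors, of which 18 were measured and 15 tested. Lymphoid minus Myeloid had 2 higher and 5 lower, beside 17.6% and 12.1% of all genes. The higher ones were the oxysterol receptor Gpr183 and the sphingosine phosphate receptor S1pr1. The lower ones included the formyl peptide receptor Fpr2, with 176 in the lymphoid and 7924 among the myeloid populations, and the leukotriene receptor Ltb4r1, with 51.1 in the lymphoid and 2209.9 among the myeloid populations. NK minus NKT had 6 higher and 1 lower, beside 6.86% and 4.47% of all genes. The higher ones were Pf4, C5ar1, C3ar1, Fpr2 and Ltb4r1, on arrays where 9 of 9 neutrophil and 8 of 8 monocyte markers were also called higher, whose part was not tested, and S1pr5. S1pr5, which acts in the exit of NK cells from marrow, was at 1489 in NK and 22.9 in NKT (5.66 ± 0.64 SE). KSL minus LinNeg had 2 lower, Gpr183 and the platelet chemokine Pf4, beside 2.45% of all genes. Pf4 averaged 557 in KSL and 1485 in LinNeg. NK minus Monocyte had 6 in each direction, beside 11.1% higher and 8.48% lower of all genes. Erythroblast minus the other mature populations had 10 lower, beside 28.8%. B minus T and Neutrophil minus Monocyte had 3 lower each, beside 7.08% and 9.56%. NKT minus T had 1 higher and 2 lower, beside 1.97% and 1.39%, and CD4T minus CD8T 2 higher, beside 2.13%.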

How the data were processed

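Probe set intensities of the Mouse Genome 430 2.0 array (Affymetrix) were used as deposited by the authors. Per the labels' protocols, RNA was extracted with ISOGEN, and cRNA was labelled after 2 cycles of cDNA synthesis on an amount equal to 3000 cells, which favours 3′ ends. The software that summarised the probes is unknown here, and the mean of each array, trimmed by 2% at either end, was 100. The small number of arrays, 2 for each population, limits the precision. Of 45101 probe sets 34945 had 1 symbol, and those with several, which include Ccl19, Ccl21 and Ccl27, were left out. Each gene was read from its brightest probe set (85 probe sets for the 53 members). Of the members called or restricted that reached 100, 7 have 12 other probe sets, and all 12 had the same highest population. Another probe set had a different highest population in the dim Ackr2, Ackr4, Ccl28, Cx3cl1, Cxcl1, Cxcl9, Cxcl11, Cxcl12, Cxcl13, Cxcl14 and Cxcl15. The pseudocount, 6.75, equals the lower quartile of the values, and a gene entered the tests if a population mean exceeded the overall median (log2 of 4.89). The model had 1 factor with 10 levels, fitted with lmFit and eBayes (trend) of limma 3.58.1 in R 4.3.3, with 10 residual and 8.46 prior degrees of freedom, and was tested on simulated data. P-values were adjusted over all 14063 genes within each of 9 contrasts and 45 pairs of populations. Alternatives were another pseudocount, quantile normalization, centring on the array median, 2 other filters, another probe set rule, the replicate number as a block, NK left out of the lymphoid side, and each array left out. Array values are given for members called or restricted whose highest population mean was 100 or more, and for some others chosen after their values were seen (Cxcr4 and dim members). Other genes come from the lists of pathway genes, other chemoattractants and cell type markers. Members and lists were chosen with earlier results of these data known. Upstream sequences are those of RefSeq, GRCm38.p6, in which 40 members matched. In all 9 letter patterns were searched, and those shown were chosen after the matches were seen.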

Additional observations from a re-analysis of the deposited data

How the results depend on the processing

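The counts of called members moved by at most 1.5 times under another pseudocount, quantile normalization, centring on the array median, 2 other filters, another probe set rule, the replicate block and, for Lymphoid minus Myeloid, with NK left out. The largest such move was in Neutrophil minus Monocyte, with 4 in place of 6 under another pseudocount, quantile normalization and no filter. Over these settings 642 of 656 combinations of a called member and a setting kept the call, 14 did not pass the threshold and 0 reversed. Combinations in which the member was not tested are left out, here and for single arrays. With the filter at the 75th percentile these were of Ackr3, Ackr4, Ccl8, Ccl22, Cxcl9 and Cxcl17. Leaving out in turn each array of a contrast kept 742 of 810, and 62 of the 93 calls held in every setting in which they were tested. The counts ranged from 5 to 7 in KSL minus LinNeg, from 14 to 17 in Lymphoid minus Myeloid, from 10 to 13 in B minus T, from 3 to 6 in CD4T minus CD8T, from 3 to 9 in NKT minus T, from 7 to 9 in NK minus NKT, from 8 to 11 in NK minus Monocyte, from 4 to 7 in Neutrophil minus Monocyte and from 17 to 22 in Erythroblast minus the other mature populations. They ranged from 24 to 28 for the F test and from 4 to 8 for restricted members, with 4 without replicate 1 of Monocyte. The restriction of Ccr1 was also lost under another pseudocount, quantile normalization and no filter, that of Ccr2 under another pseudocount, and that of Ackr1, Ccrl2 and Cxcr5 under none of the settings. A population left with 1 array is assumed to vary like the others. The cause of these losses was not tested.

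Little shift common to the arrays of a replicate number was seen: the deviations of replicate 1 correlated between populations at -0.09 to 0.21, and 1 of 45 correlations was above 0.1. The labels do not name the animals, so this cannot show whether arrays of the same number share an origin. With the number as a block the call of Ccr7 in KSL minus LinNeg was lost (adjusted p = 0.0514) and the counts were 6 in KSL minus LinNeg, 6 in CD4T minus CD8T and, in the other 7 contrasts, those of the fit without the block, with 26 for the F test and 8 restricted members.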
